A study of Mus musculus with 22 samples.

Results

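Transcripts of 8 amino acid carriers were followed in the distal colon of healthy and colitic mice. The 8 genes are Slc7a5, Slc3a2, Slc7a8, Slc16a10, Slc6a14, Slc6a19, Slc1a5 and Slc38a2, and they were taken by gene symbol from a count table of 46078 genes. Each of the 8 had a row, and each passed the filter on low counts in all comparisons. The mice were 8 C57BL/6 animals aged 14 weeks (4 male, 4 female), 7 Winnie animals aged 14 weeks (3 male, 4 female) and 7 Winnie-Prolapse animals aged 18 weeks (4 male, 3 female). Winnie mice carry a missense mutation in Muc2, the gene of the main colonic mucin, on a C57BL/6 background and develop colitis spontaneously. Winnie-Prolapse mice carry the same mutation and are labelled severely inflamed. Prolapse and age cannot be told apart in this design, because the Winnie-Prolapse animals were older than every other animal. Frozen segments of whole distal colon were used, so fewer cells of a type and less RNA per cell cannot be told apart in any of the values below.

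Tryptophan is an essential amino acid that enters and leaves cells through several carriers of different families. SLC7A5 and SLC7A8 are exchangers of large neutral amino acids such as tryptophan and leucine, and both need the SLC3A2 glycoprotein as a partner to reach the plasma membrane. SLC16A10 lets aromatic amino acids leave the cell along their gradient, whereas SLC6A14 and SLC6A19 use sodium to pull amino acids in across the apical face of epithelia. SLC1A5 and SLC38A2 move small neutral amino acids, glutamine among them, and supply substrates that the exchangers trade for large ones. In the gut these carriers set which amino acids reach protein synthesis, the kynurenine route and serotonin synthesis.

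The genes lie on 8 different chromosomes of the GRCm38 build, and all are annotated as protein-coding. Slc7a5 is at chr8:121881150-121907694, Slc3a2 at chr19:8706882-8723369, Slc7a8 at chr14:54722209-54781946 and Slc16a10 at chr10:40033532-40142258, each on the minus strand. Slc6a14 is at chrX:21714896-21742355 and Slc1a5 at chr7:16781340-16798274, both on the plus strand. Slc6a19 at chr13:73679745-73704865 and Slc38a2 at chr15:96687392-96699730 are on the minus strand. Small annotated genes overlap 4 of them, and the largest total over all libraries was 418 counts for Gm25553, on the same strand within the span of Slc6a14, which itself had at least 6309 counts in every library.

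Promoter sequence from RefSeq on GRCm38.p6, from 250 bases before to 50 bases after the start site, was given for 6 of the 8 genes, all but Slc7a5 and Slc1a5. The sequences of Slc3a2 and Slc38a2, which were higher in Winnie-Prolapse than in C57BL/6 at an adjusted p under 0.05, and of Slc6a14, which fell, are shown as the proximal control sequences of members that differed in opposite directions. Capitals mark matches on either strand to 3 motifs. The GC box was searched as GGGCGG. For the CCAAT box its own letters were searched. The AP-1 site was searched as TGACTCA. The start site of Slc3a2 lies well inside the gene's annotated span, at an internal start. The same holds for Slc6a19, whose sequence is counted below but not shown.
Slc3a2, chr19:8713848-8714147, minus strand: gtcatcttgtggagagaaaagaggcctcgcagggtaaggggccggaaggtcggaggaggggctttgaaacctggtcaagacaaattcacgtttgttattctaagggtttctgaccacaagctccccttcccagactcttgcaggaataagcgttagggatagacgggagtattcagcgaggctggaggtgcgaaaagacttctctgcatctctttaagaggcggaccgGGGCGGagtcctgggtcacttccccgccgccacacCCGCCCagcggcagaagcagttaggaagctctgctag
Slc38a2, chr15:96699679-96699978, minus strand: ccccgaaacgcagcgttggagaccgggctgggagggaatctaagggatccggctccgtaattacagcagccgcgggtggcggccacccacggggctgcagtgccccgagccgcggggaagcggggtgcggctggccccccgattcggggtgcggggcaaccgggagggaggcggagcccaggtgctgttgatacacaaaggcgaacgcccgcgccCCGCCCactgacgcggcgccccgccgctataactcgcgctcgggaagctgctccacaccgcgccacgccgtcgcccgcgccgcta
Slc6a14, chrX:21714650-21714949, plus strand: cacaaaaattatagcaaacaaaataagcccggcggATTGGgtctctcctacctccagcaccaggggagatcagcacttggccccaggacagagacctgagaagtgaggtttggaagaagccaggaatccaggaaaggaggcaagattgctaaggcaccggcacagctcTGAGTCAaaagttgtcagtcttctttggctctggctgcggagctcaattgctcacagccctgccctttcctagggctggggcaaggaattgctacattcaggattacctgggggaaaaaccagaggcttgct
The Slc38a2 sequence was 73.0% GC with 41 CG dinucleotides, and the Slc6a14 sequence was 52.7% GC with 4. Slc6a14 was the only one of the 6 promoters with TGACTCA, which 5.2% of the 32851 promoters in the table held on either strand. None of the 6 held TGATGNAA, the core of the amino acid response element, which was found in 3.97% of all promoters and in 6 of 20 promoters of amino acid response genes (Asns, Atf3, Chac1, Nupr1, Pycr1 and Trib3). GGGCGG was found in 4 of the 6 and in 35.7% of all promoters, and CCAAT in 3 of the 6 and in 37.4%. A match of letters is a description of the window and not a site of binding.

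The libraries held 24817527 to 36344372 counts assigned to genes. Levels are given as CPM, the share of a gene in each 1000000 counts of its library, scaled with TMM factors, which keep a few very abundant genes from lowering all others. This mattered for Winnie-Prolapse replicate 6, in which 18.0% of counts came from 6 genes of the lactating mammary gland, against at most 0.00542% in the other Winnie-Prolapse libraries. Markers of squamous epithelium also stood far above C57BL/6 in 5 of the 7 Winnie-Prolapse libraries, with a highest summed level of 2793 CPM against at most 2.83 CPM in C57BL/6. C57BL/6 replicate 7 stood apart within its group in small intestine enterocyte markers, with 1004 CPM against a group median of 225 CPM. General epithelial markers were plentiful in every library, from 7734 to 14023 CPM.

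By mean level per kilobase of exon, Slc6a14 and Slc1a5 were the most abundant of the 8 in all groups, and Slc6a19 was the least abundant. Single libraries departed from this, as in Winnie-Prolapse replicate 6, where Slc7a5 and Slc3a2 were above Slc1a5, and the ranges of Slc1a5 and Slc3a2 overlapped in Winnie-Prolapse. In C57BL/6 the levels per kilobase were 173 ± 34.6 CPM for Slc6a14, 57.04 ± 10.5 CPM for Slc1a5, 18.3 ± 3.42 CPM for Slc3a2 and 17.4 ± 4.02 CPM for Slc38a2 (mean ± SD, n = 8). Below these came Slc7a8 at 4.30 ± 1.15 CPM per kilobase, Slc7a5 at 2.47 ± 0.584, Slc16a10 at 0.893 ± 0.126 and Slc6a19 at 0.176 ± 0.0775. Neighbours in this order did not overlap across the C57BL/6 libraries, except for Slc3a2 with Slc38a2 and Slc7a8 with Slc7a5. The order of Slc7a8 and Slc7a5 was the other way round in the colitic groups. Slc7a5 stood at 5.15 ± 2.17 CPM per kilobase in Winnie against 3.00 ± 1.63 for Slc7a8, and at 17.0 ± 19.4 against 3.14 ± 1.01 in Winnie-Prolapse (mean ± SD, n = 7 each). Slc7a5 was above Slc7a8 in 5 of 7 Winnie and in 7 of 7 Winnie-Prolapse libraries, although the ranges of the 2 genes overlapped in each group.

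**Figure D1:**
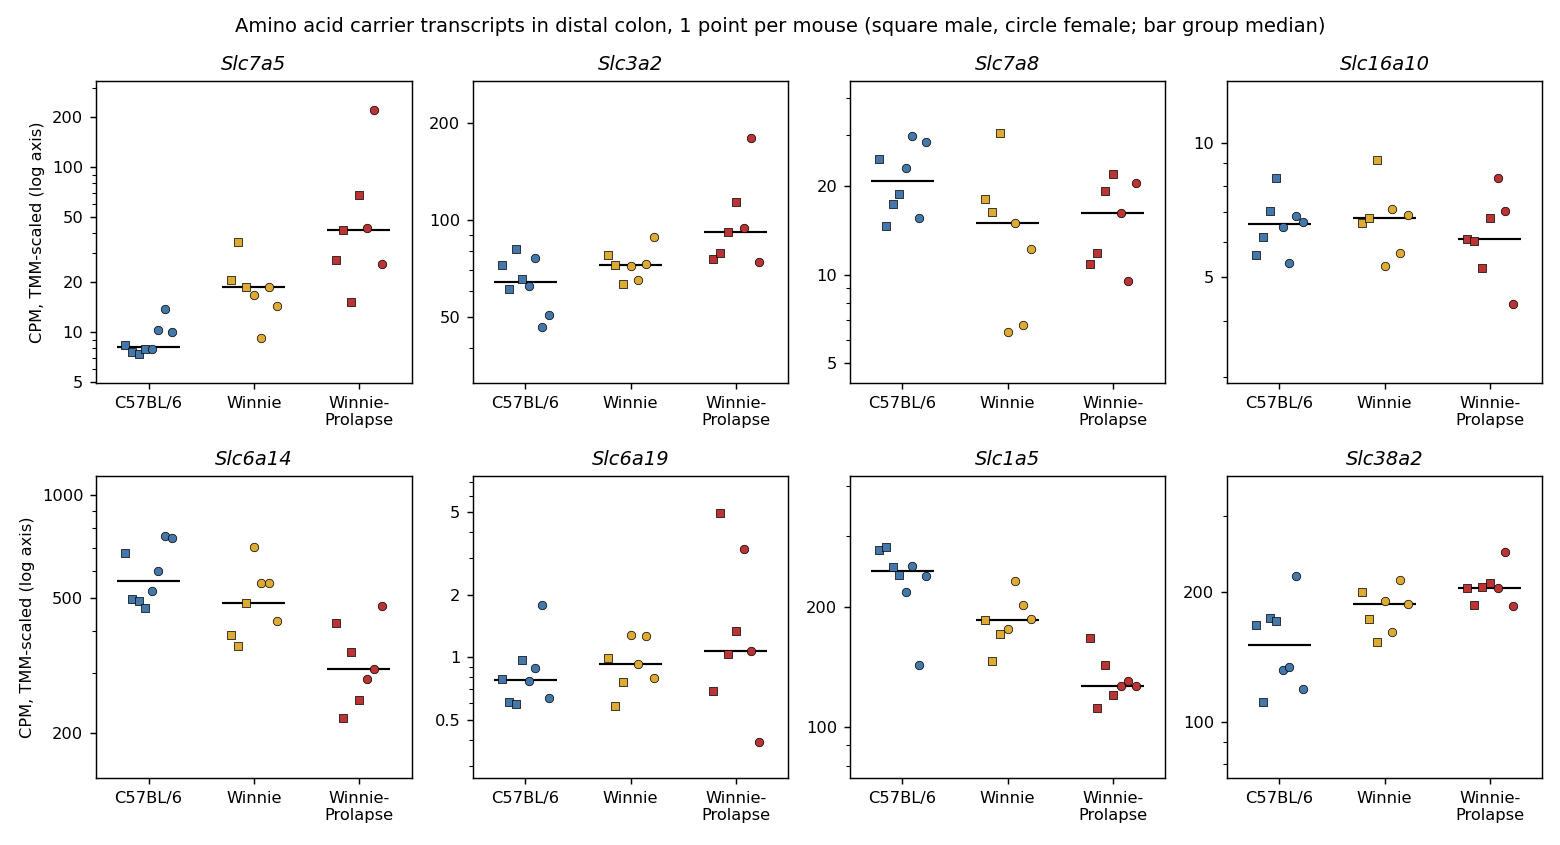
Level of each of the 8 carriers in every library, in TMM-scaled CPM on a log axis, for C57BL/6 (n = 8), Winnie (n = 7) and Winnie-Prolapse (n = 7), with squares for males, circles for females and a bar at the group median. All 7 Winnie-Prolapse points of Slc7a5 lie above the highest C57BL/6 point (13.8 CPM), whereas the 3 groups of Slc16a10 cover nearly the same range.

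Slc7a5, the light chain of the large neutral amino acid exchanger, was the gene of the 8 that differed most from C57BL/6. Its lowest, median and highest levels were 7.35, 8.15 and 13.8 CPM in C57BL/6, 9.16, 18.7 and 35.2 CPM in Winnie, and 15.3, 41.7 and 222 CPM in Winnie-Prolapse. Every Winnie-Prolapse library was above every C57BL/6 library, and 6 of 7 Winnie libraries were. Winnie replicate 5 was within the C57BL/6 range, and Winnie-Prolapse replicate 6, the library with mammary transcripts, was far above the next highest at 67.6 CPM.

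Slc7a5 rose in Winnie-Prolapse by a log2 fold change of 2.78 ± 0.47 (SE) over C57BL/6, a fold of 6.87, with an adjusted p of 0.000187 in the quasi-likelihood test of edgeR. Without Winnie-Prolapse replicate 6 the log2 fold change was 2.01. The call was lost in males alone (2.28, adjusted p = 0.00375 by edgeR), in females alone (3.20, adjusted p = 0.0130) and with limma-voom (2.24, adjusted p = 0.00134). Of all genes, 1.76% were called in males alone, 1.45% in females alone and 17.6% with limma-voom. In Winnie the log2 fold change over C57BL/6 was 1.07 ± 0.22, a fold of 2.09, and its adjusted p of 0.00558 missed the limit of 0.001 used in the study's methods but passed the looser limit of 0.05. Without Winnie replicate 5 it was 1.19 with an adjusted p of 0.000624 by edgeR. Between Winnie-Prolapse and Winnie the log2 difference was 1.72 ± 0.52 (adjusted p = 0.0525 by edgeR), and 4 of 7 Winnie-Prolapse libraries were above all Winnie libraries. Without Winnie-Prolapse replicate 6 this difference was 0.94.

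Immune and proliferation markers differed between the same groups as Slc7a5. In Winnie-Prolapse against C57BL/6, 7 of 7 tested macrophage and neutrophil markers and 5 of 7 T cell markers were called higher. So were 3 of 8 plasma and B cell markers and 3 of 6 proliferation markers, and none of these 4 lists had a marker called lower. Of all genes tested there, 9.84% were called higher. Macrophage and neutrophil markers summed to 19.7 to 45.3 CPM in C57BL/6 libraries, to 30.6 to 205 CPM in Winnie libraries and to 142 to 1163 CPM in Winnie-Prolapse libraries, and no marker of this list was at 0 throughout any group. Squamous markers summed to 49.2 CPM in Winnie replicate 2, which had the highest Slc7a5 of its group, and to at most 3.35 CPM in the other Winnie libraries. The 4 Winnie-Prolapse libraries with the most Slc7a5 (replicates 2, 4, 5 and 6) held 170 to 1641 CPM of these markers, whereas replicate 7 held 2793 CPM with Slc7a5 at 25.9 CPM. Among Winnie-Prolapse libraries, T cell markers were highest in replicate 7 (58.6 CPM) and lowest in replicate 2 (18.6 CPM). Slc7a5 was at 25.9 CPM in replicate 7 and at 41.7 CPM in replicate 2. Macrophage and neutrophil markers were highest in replicate 4 (1163 CPM, with Slc7a5 at 67.6 CPM) and lowest in replicate 2 (142 CPM). The part of any of these cells in the level of Slc7a5 was not tested.

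Among the 8 carriers, 1 was called higher and 2 lower in Winnie-Prolapse against C57BL/6, at an adjusted p under 0.001 and at least a 1.5-fold difference. Of all 17397 genes tested there, 18.3% were called. In Winnie against C57BL/6, 0 of 8 were called, and so were 0.0925% of 17289 genes. That background moved with single libraries and with the tool, from 0.0% without C57BL/6 replicate 1, 2 or 6 to 3.89% without Winnie replicate 5, and it was 5.95% with DESeq2 and 0.0% with limma-voom. Unadjusted p in edgeR was under 0.05 for 2 of the 8, beside 6901 of all 17289 genes, and DESeq2 called 1 (Slc7a5). Between Winnie-Prolapse and Winnie, 0 of 8 were called by edgeR, beside 0.0% of 17041 genes. DESeq2 called 0 of 8 there as well, beside 3.14% of all genes. Unadjusted p in edgeR was under 0.05 for 4 of the 8, beside 4743 of all 17041 genes. At an adjusted p under 0.05 with the same fold limit, 1 of the 8 passed in Winnie against C57BL/6, beside 15.9% of all genes. The same rule passed 4 of the 8 for Winnie-Prolapse against C57BL/6, beside 34.4%, and 0 of 8 between the colitic groups, beside 6.99%. Groups that did not overlap were seen for Slc7a5 alone, in Winnie-Prolapse against C57BL/6, where 16.6% of all genes had groups that did not overlap. That share was 1.6% for Winnie against C57BL/6 and 1.11% between the colitic groups. These comparisons share samples, since the C57BL/6 and Winnie libraries each enter 2 of them.

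**Figure D2:**
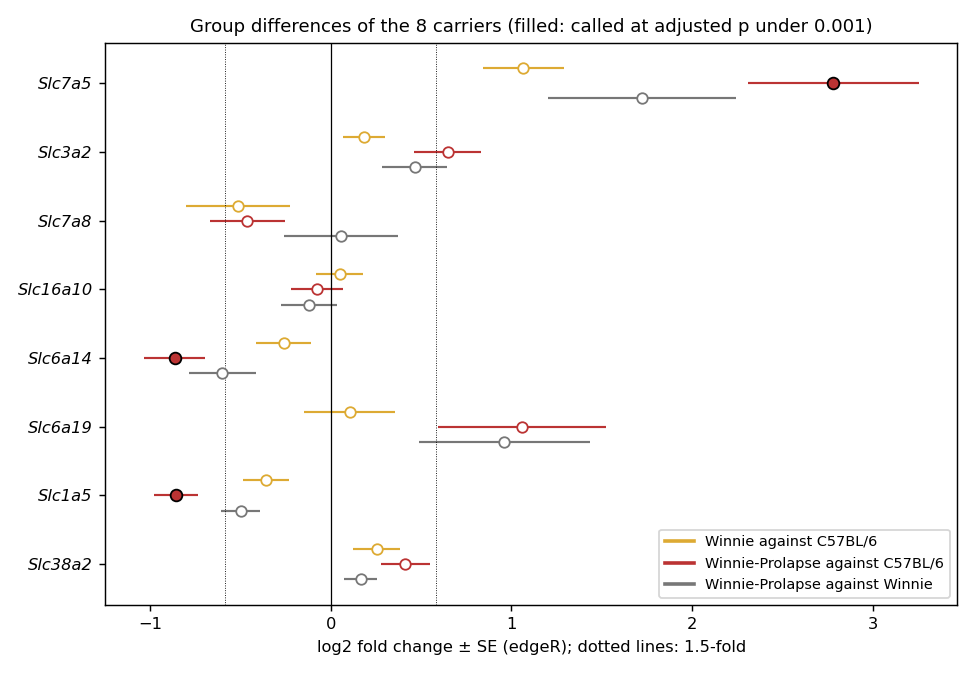
Log2 fold change of each carrier with its SE from edgeR (x axis) in the 3 pairwise comparisons of groups, with dotted lines at 1.5-fold and filled points for calls at an adjusted p under 0.001. The 3 filled points all belong to Winnie-Prolapse against C57BL/6: Slc7a5 at 2.78, Slc6a14 at -0.86 and Slc1a5 at -0.86.

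Slc3a2, the heavy chain that carries SLC7A5, SLC7A8 and other light chains to the membrane, differed by less than Slc7a5. From lowest through median to highest, it was at 46.5, 63.9 and 81.2 CPM in C57BL/6, 63.0, 72.6 and 88.4 CPM in Winnie, and 74.2, 91.6 and 181 CPM in Winnie-Prolapse. The groups overlapped, and 4 of 7 Winnie-Prolapse libraries were above all C57BL/6 libraries. Its log2 difference from C57BL/6 was 0.65 ± 0.18 in Winnie-Prolapse (adjusted p = 0.00800 by edgeR) and 0.18 ± 0.11 in Winnie (adjusted p = 0.242). The first of these passed the looser limit only, and was 0.46 without Winnie-Prolapse replicate 6.

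Slc7a8, the second large neutral exchanger, was lower on average in both colitic groups but passed the test in neither. C57BL/6 libraries had a lowest, median and highest level of 14.6, 20.9 and 29.6 CPM, Winnie libraries of 6.398, 14.9 and 30.4 CPM, and Winnie-Prolapse libraries of 9.51, 16.2 and 21.97 CPM. The lowest and the highest library of all 22 were both Winnie libraries. The log2 differences from C57BL/6 were -0.51 ± 0.29 in Winnie (adjusted p = 0.192) and -0.46 ± 0.21 in Winnie-Prolapse (adjusted p = 0.0727) in edgeR.

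The balance of the 2 light chains within each library was shifted toward Slc7a5. As log2 ratios of counts, which are not scaled to gene length but compare groups without any scaling between libraries, Slc7a5 to Slc7a8 had a mean of -1.22 ± 0.47 in C57BL/6 (SD, n = 8), 0.43 ± 0.92 in Winnie (n = 7) and 1.53 ± 1.53 in Winnie-Prolapse (n = 7). The difference from C57BL/6 was 1.64 in Winnie (p = 0.00109, adjusted 0.00218) and 2.75 in Winnie-Prolapse (p = 0.000311, adjusted 0.00186) in two-sided exact permutation tests adjusted over 6 comparisons. Of the colitic libraries, 5 of 7 Winnie and 6 of 7 Winnie-Prolapse ratios were above all C57BL/6 ratios. The difference between Winnie-Prolapse and Winnie, 1.10, was within the spread (exact permutation p = 0.118).

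The ratio of Slc7a5 to its partner Slc3a2 was also higher in the colitic groups. C57BL/6 libraries had a log2 mean of -2.82 ± 0.53, Winnie libraries of -2.03 ± 0.58 and Winnie-Prolapse libraries of -1.16 ± 0.87. The difference from C57BL/6 was 0.79 in Winnie (exact permutation p = 0.0177, adjusted 0.0266) and 1.67 in Winnie-Prolapse (exact permutation p = 0.000932, adjusted 0.00218). In females alone the Winnie difference was 0.11 (exact permutation adjusted p = 0.714). Between Winnie-Prolapse and Winnie it was 0.87 (exact permutation p = 0.0478, adjusted 0.0573). Only Winnie-Prolapse replicate 6 had more counts of Slc7a5 than of Slc3a2, with a log2 ratio of 0.29. Across libraries of a group, Slc7a5 and Slc3a2 were followed by their correlation. In Winnie-Prolapse Pearson's r was 0.871 (exact permutation p = 0.0200, adjusted 0.120 over 6 correlations, n = 7) and Spearman's rho 0.786 (exact permutation p = 0.0480, adjusted 0.288). Without the 2 libraries farthest from the median of Slc3a2, r was -0.06, so that the relation rests on those libraries. None of the 6 within-group correlations of Slc3a2 with Slc7a5 or Slc7a8 passed an adjusted p of 0.05 in exact permutation tests.

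**Figure D3:**
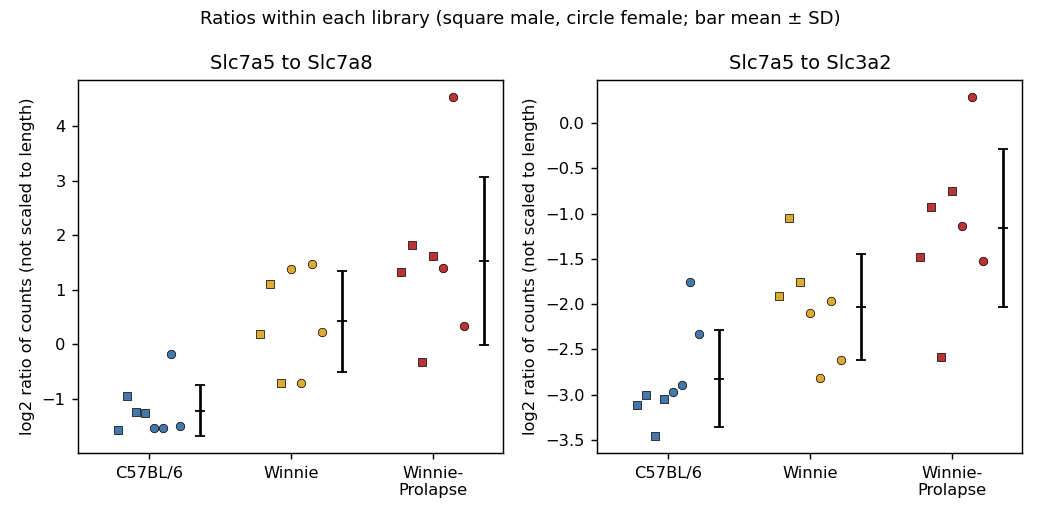
Log2 ratio of the counts of Slc7a5 to Slc7a8 (left) and to Slc3a2 (right) in each library, with squares for males, circles for females and bars for the group mean ± SD. In C57BL/6 every Slc7a5 to Slc7a8 ratio is below 0 and replicate 7 is the highest at -0.18, whereas 5 of 7 Winnie and 6 of 7 Winnie-Prolapse ratios lie above it.

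Slc16a10, the facilitated carrier of aromatic amino acids, showed no detectable difference between groups. The lowest, median and highest levels were 5.38, 6.57 and 8.36 CPM in C57BL/6, 5.30, 6.80 and 9.17 CPM in Winnie, and 4.35, 6.09 and 8.34 CPM in Winnie-Prolapse, which overlap almost entirely. The log2 difference from C57BL/6 was 0.05 in Winnie, with a 95% interval of -0.20 to 0.30, and -0.07 in Winnie-Prolapse, with an interval of -0.35 to 0.20. Both intervals leave out a 1.5-fold difference in either direction.

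Slc6a14, the sodium- and chloride-driven carrier of neutral and cationic amino acids, was the most abundant of the 8 and fell in Winnie-Prolapse. Its lowest, median and highest levels were 467, 561 and 757 CPM in C57BL/6, 361, 484 and 706 CPM in Winnie, and 221, 309 and 472 CPM in Winnie-Prolapse. In Winnie-Prolapse 6 of 7 libraries were below all C57BL/6 libraries, and replicate 7 alone overlapped with them. The log2 fold change against C57BL/6 was -0.86 ± 0.17, a fold of 0.550, with an adjusted p of 0.000601 by edgeR. This call was close to the limit: when each of the 15 libraries was left out in turn, the call was lost in 10 fits, with adjusted p up to 0.00213 and log2 fold changes from -0.996 to -0.771. In Winnie the difference was -0.26 ± 0.15 (adjusted p = 0.219 by edgeR), and between Winnie-Prolapse and Winnie it was -0.60 ± 0.19 (adjusted p = 0.0566). Mean levels were lower in Winnie males than in Winnie females (412 ± 64.4 against 559 ± 114 CPM, n = 3 and 4), and in C57BL/6 males than in C57BL/6 females (533 ± 97.4 against 657 ± 115 CPM, n = 4 each), for a gene on the X chromosome, with overlapping ranges of males and females in both groups.

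Slc1a5, the exchanger of glutamine and other small neutral amino acids, also fell in Winnie-Prolapse. Its lowest, median and highest levels were 143, 246 and 283 CPM in C57BL/6, 146, 185 and 232 CPM in Winnie, and 112, 127 and 167 CPM in Winnie-Prolapse. The low C57BL/6 value belonged to replicate 7, and the other 7 C57BL/6 libraries, from 218 CPM upward, were above every Winnie-Prolapse library. The log2 fold change in Winnie-Prolapse against C57BL/6 was -0.86 ± 0.12, a fold of 0.553 (adjusted p = 4.76e-05 by edgeR), and it was called whichever of the 15 libraries was left out. It was not called in males alone (-0.96, adjusted p = 0.00264 by edgeR) or in females alone (-0.74, adjusted p = 0.0255), where 1.76% and 1.45% of all genes were called. Against Winnie the log2 difference was -0.50 ± 0.11 (adjusted p = 0.0184 by edgeR), with 6 of 7 Winnie-Prolapse libraries below all Winnie libraries. Winnie itself was at -0.36 ± 0.13 against C57BL/6 (adjusted p = 0.0516 by edgeR).

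Markers of mature colonocytes differed along with Slc6a14 and Slc1a5. Summed, they made up 5549 to 9727 CPM in C57BL/6 libraries, 2700 to 10386 CPM in Winnie libraries and 1267 to 7439 CPM in Winnie-Prolapse libraries. In Winnie-Prolapse against C57BL/6, 2 of 7 of these markers were called lower, beside 8.47% of all genes. At the looser limit 4 were lower and 1 was higher, Krt20, by 0.87 (adjusted p = 0.0397 by edgeR). General epithelial markers were not called in either direction (0 of 6 by edgeR). Unadjusted p in edgeR was under 0.05 for 2 of the 6, beside 10174 of all 17397 genes. These epithelial markers summed to 7734 to 9966 CPM in C57BL/6 and 8629 to 14023 CPM in Winnie-Prolapse. All 7 smooth muscle markers were called lower, with a median log2 difference of -1.78. The part of any of these in the levels of the 2 carriers was not tested. Among Winnie-Prolapse libraries, replicate 3 had the most colonocyte markers (7439 CPM) and the lowest Slc7a5 (15.3 CPM), with Slc6a14 at 348 CPM and Slc1a5 at 143 CPM.

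Slc6a19, the neutral amino acid carrier of the small intestinal brush border, was barely detected in distal colon. Libraries ranged, from lowest through median to highest, over 0.594, 0.777 and 1.78 CPM in C57BL/6, 0.582, 0.928 and 1.28 CPM in Winnie, and 0.392, 1.08 and 4.96 CPM in Winnie-Prolapse. The high C57BL/6 value was from replicate 7, the library with the most small intestine enterocyte markers, and 2 Winnie-Prolapse libraries (replicates 2 and 5, at 4.96 and 3.34 CPM) stood above the rest. The log2 difference of 1.06 ± 0.46 from C57BL/6 in Winnie-Prolapse had an adjusted p of 0.0658 by edgeR, and in Winnie it was 0.11 ± 0.25 (adjusted p = 0.779).

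Slc38a2, which imports small neutral amino acids with sodium and is known to be induced when amino acids are scarce, was higher by less than 1.5-fold. Lowest, median and highest levels of Slc38a2 were 111, 151 and 218 CPM in C57BL/6, 154, 187 and 213 CPM in Winnie, and 186, 205 and 247 CPM in Winnie-Prolapse. C57BL/6 replicate 7, again, was the library that kept the groups from separating, and 7 of 8 C57BL/6 libraries were below every Winnie-Prolapse library. The log2 difference was 0.41 ± 0.13 in Winnie-Prolapse (adjusted p = 0.0163 by edgeR) and 0.25 ± 0.13 in Winnie (adjusted p = 0.159).

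**Figure D4:**
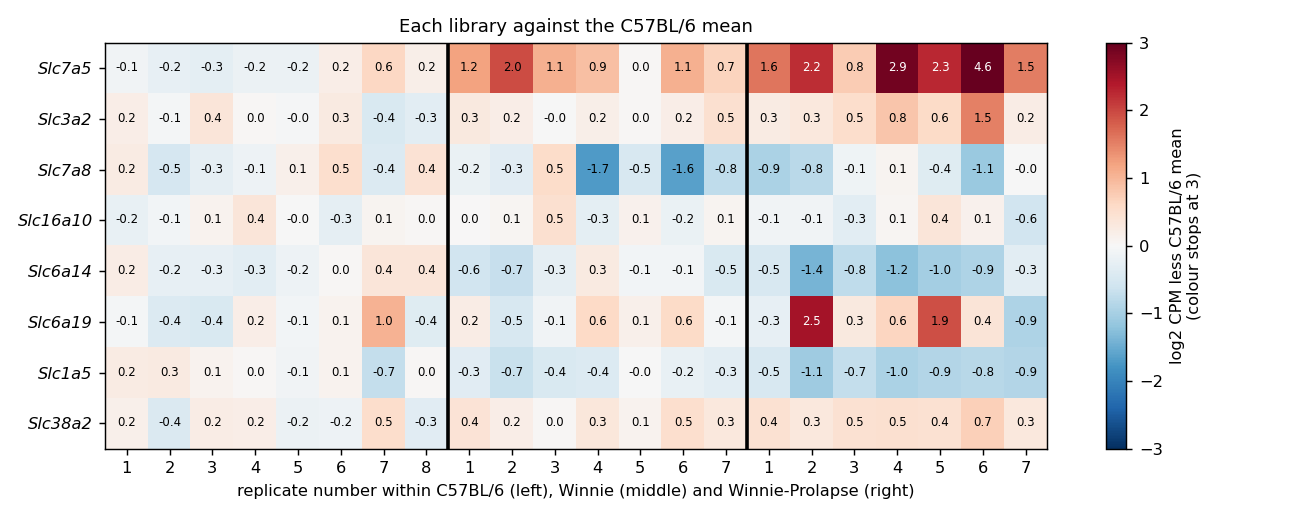
Log2 CPM of each carrier (rows) in each library (columns) less the mean of the C57BL/6 libraries, with red above and blue below that mean and colours ending at 3. Slc7a5 is red in every Winnie-Prolapse column and Slc1a5 blue, whereas Slc7a8 and Slc6a19 stand out in single libraries.

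Sex was asked of each carrier as an interaction with group. In Winnie against C57BL/6 the rise of Slc7a5 was larger in males than in females by 1.19 ± 0.35 on the log2 scale (adjusted p = 0.115 by edgeR). For Slc7a8 the signed log2 difference was higher in males by 1.46 ± 0.44 (adjusted p = 0.119 by edgeR). It was 0.20 in males alone, whereas the mean level in females was lower in Winnie than in C57BL/6. Neither gene passed the limit set for the interaction, an adjusted p under 0.05. In males alone Slc7a5 differed by 1.68 (adjusted p = 0.00167 by edgeR) and in females alone by 0.48 (adjusted p = 0.317). The fit in males alone passed 2849 genes higher and 2450 lower, of 17574, at an adjusted p under 0.05. That in females alone passed 1 higher and 0 lower, of 17260, so the contrast in adjusted p was not particular to Slc7a5. Levels of Slc7a8 were 21.6 ± 7.67 CPM in Winnie males (n = 3) and 10.1 ± 4.21 CPM in Winnie females (n = 4), and 18.9 ± 4.29 and 24.1 ± 6.36 CPM in C57BL/6 males and females (n = 4 each). In Winnie-Prolapse no interaction of the 8 had an adjusted p under 1.0 in edgeR.

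Other amino acid carriers were read from a list of 43 genes, of which 31 were tested in Winnie-Prolapse against C57BL/6. There 5 rose and 3 fell by the edgeR call, where 9.84% of all genes were called higher and 8.47% lower. The list's median log2 difference was 0.08, and that of all genes -0.01. The largest rise was in Slc7a11, the cystine and glutamate exchanger that also pairs with SLC3A2, from 2.65 ± 1.52 CPM in C57BL/6 to 34.3 ± 23.1 CPM (log2 fold change 3.69 ± 0.44). Slc7a2 and Slc7a1, carriers of cationic amino acids such as arginine, rose by 2.55 ± 0.50 and 1.03 ± 0.17 on the log2 scale. For Slc7a2, 5 of 7 Winnie-Prolapse libraries were above all C57BL/6 libraries and 1 was below all of them. For Slc7a1, 6 of 7 were above all C57BL/6 libraries. Slc7a7, another light chain of SLC3A2, rose by 0.91 ± 0.08, from 34.4 ± 3.09 to 65.0 ± 8.48 CPM, and all 7 Winnie-Prolapse libraries were above all C57BL/6 libraries. The glycine carrier Slc6a9 rose by 1.56 ± 0.12, also without overlap.

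The 3 carriers that fell, Slc6a15, Slc6a17 and Slc6a7, are known from neurons. Their log2 fold changes were -2.05 ± 0.34, -1.42 ± 0.29 and -1.66 ± 0.28. All 7 Winnie-Prolapse libraries were below all C57BL/6 libraries for Slc6a15 and Slc6a17, but only 1 of 7 for Slc6a7. Markers of enteric neurons and glia were lower in the same comparison, 7 of 8 by the same call, with sums of 54.4 to 126 CPM in C57BL/6 and 15.4 to 49.98 CPM in Winnie-Prolapse. Their part in these 3 differences was not tested. In Winnie against C57BL/6, 0 of 31 tested carriers were called by edgeR, beside 0.0925% of all genes. DESeq2 called 4 carriers of the list, beside 5.95% of all genes. Unadjusted p in edgeR was under 0.05 for 15 of the 31, beside 6901 of all 17289 genes. The smallest adjusted p values there were 0.00172 for Slc6a9 (log2 difference 0.97), 0.00200 for Slc6a15 (-1.82) and 0.00361 for Slc7a11 (1.89). Between Winnie-Prolapse and Winnie, 0 of 29 were called by edgeR, beside 0.0% of all genes, and DESeq2 called 2 carriers of the list, beside 3.14%. Unadjusted p in edgeR was under 0.05 for 13 of the 29, beside 4743 of all 17041 genes.

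Genes that cells can turn on when amino acids run short, through the ATF4 factor, were read from a list of 21. Whether amino acids were short in this tissue was not tested. In Winnie-Prolapse against C57BL/6 11 of 21 rose and none fell by the edgeR call, with a median log2 difference of 1.30. Of all genes, 9.84% were called higher there and 8.47% lower. At the looser limit 15 were higher and 1 was lower, Ddit3, a pro-apoptotic transcription factor named here after its values were seen (log2 difference -0.64 ± 0.15, adjusted p = 0.00200 by edgeR). The largest differences were 3.79 ± 0.31 for Chac1, an enzyme that degrades glutathione, 3.54 ± 0.39 for Trib3, a pseudokinase, 2.52 ± 0.23 for Psat1, of serine synthesis, and 2.24 ± 0.21 for Asns, asparagine synthetase. In Winnie against C57BL/6, where 0.0925% of all genes were called, 2 of 21 rose and the list's median was 0.80. The 2 genes were Trib3, by 1.77 ± 0.21, and Chac1, by 3.14 ± 0.41. Both separated all 7 Winnie libraries from all C57BL/6 libraries. C57BL/6 mice had 1.05 ± 0.321 CPM of Chac1, Winnie mice 9.27 ± 5.50 CPM and Winnie-Prolapse mice 14.7 ± 7.63 CPM. Between Winnie-Prolapse and Winnie 0 of 21 were called by edgeR, beside 0.0% of all genes, and the list's median was 0.56. Unadjusted p in edgeR was under 0.05 for 10 of the 21, beside 4743 of all 17041 genes.

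Among 12 tested genes that use tryptophan, of 16 listed, 3 rose and 2 fell in Winnie-Prolapse against C57BL/6. In that comparison 9.84% of all genes were called higher and 8.47% lower. Ido1, the first enzyme of the kynurenine route, was at 2.28 ± 1.26 CPM in C57BL/6 and 383 ± 337 CPM in Winnie-Prolapse, a log2 fold change of 7.38 ± 0.57. Ido2 rose by 4.19 ± 0.60, and Wars, the cytosolic tryptophanyl-tRNA synthetase, by 2.49 ± 0.14, from 96.8 ± 8.69 to 549 ± 154 CPM. Afmid, the kynurenine formamidase, and Ddc, the decarboxylase that completes serotonin synthesis, had log2 fold changes of -0.77 ± 0.14 and -1.20 ± 0.20. In Winnie against C57BL/6 0 of 12 were called by edgeR, with unadjusted p under 0.05 for 3, beside 6901 of all 17289 genes. Closest to a call in edgeR came Wars (2.01 ± 0.30, adjusted p = 0.00132) and Ido1 (5.34 ± 0.90, adjusted p = 0.00214).

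**Figure D5:**
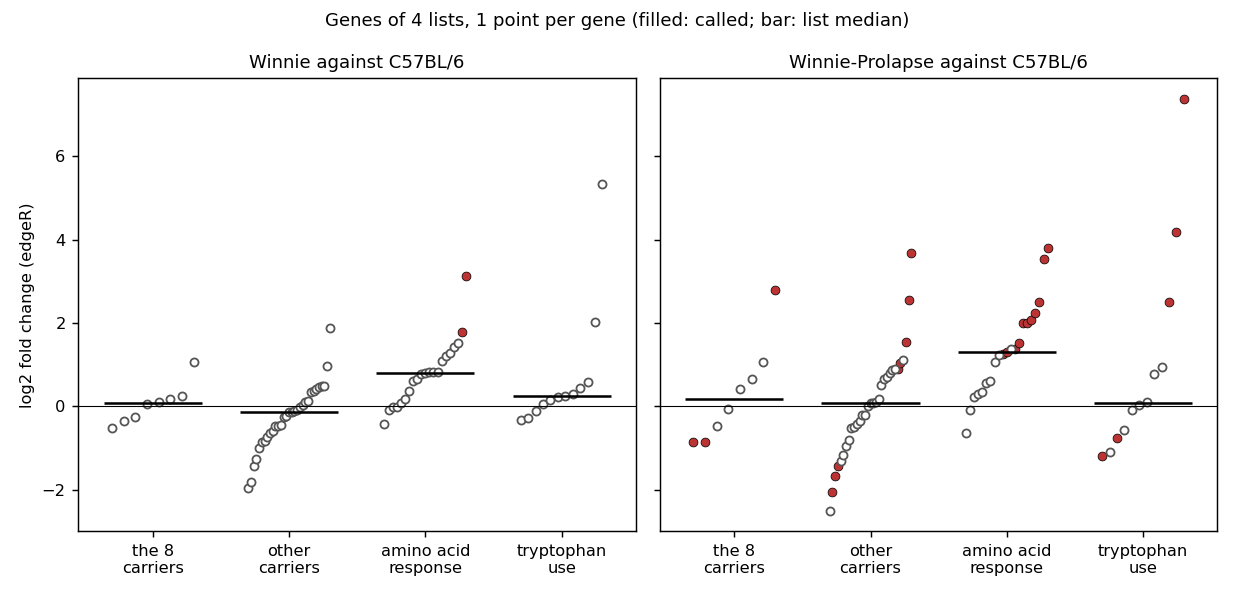
Log2 fold change (y axis) of each tested gene of 4 lists in Winnie (left) and Winnie-Prolapse (right) against C57BL/6, with filled points for calls at an adjusted p under 0.001 and at least 1.5-fold and a bar at each list's median. The medians of the amino acid response list, 0.80 and 1.30, are the highest of the 4, and the medians of the other 3 lists lie between -0.14 and 0.24.

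Within groups the 8 carriers varied largely apart from each other. Across the 22 libraries, after taking the mean of its own group from each log2 level, the strongest Spearman correlation between any of them and Slc7a5 was -0.54, with Slc1a5. Other genes tracked single carriers more closely. The nearest of 17769 genes to Slc7a5 were Fam57a (0.92), Itpripl1 (0.91) and Aen (0.89), and the nearest to Slc6a14 were Maoa (0.86), Lonp2 (0.85) and Foxo3 (0.85). Slc3a2 was nearest to Tbc1d25 (0.88), Wfdc17 (0.80) and Ubtd1 (0.77), and Slc1a5 to Tnni1 (0.85), Gca (0.81) and Gm14719 (0.81). Slc38a2 was nearest to Uba3, Exoc8 and Ube2g2 (0.83 to 0.82), Slc16a10 to Pask, 4930597O21Rik and Lca5 (0.81 to 0.76), Slc7a8 to Gm5763, Cml3 and Tfpi (0.80 to 0.72), and the sparse Slc6a19 to Smpd1, Copz2 and Arxes2 (0.86 to 0.80). These values describe the libraries, which share depth and tissue makeup, and the nearest of many genes are chosen for a high value.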

How the data were processed

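Poly-A RNA of distal colon segments (TRIzol and RNeasy extraction, stranded MGIEasy libraries) was sequenced by the authors, and the deposited values are raw read counts per gene, made per the labels with STAR and featureCounts on GRCm38. The annotation release, the strand setting and the treatment of shared reads are not given in the sources used here. The labels state limited access to food and water, whereas the methods state free access. Gene positions and exon lengths were taken from GENCODE M21, and promoters from RefSeq.

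Counts were tested with edgeR 4.0.16 (R 4.3.3): filterByExpr, TMM factors, the quasi-likelihood F test and Benjamini-Hochberg adjustment over all genes tested, in a separate fit for each pair of groups. A call needed an adjusted p under 0.001 and at least a 1.5-fold difference. The standard error was the log2 fold change over the root of F, and 95% intervals took a normal distribution. Printed CPM are counts over the library total times its TMM factor. Ratios had 0.5 added to each count and were compared in two-sided exact permutation tests. The interaction with sex was fitted on all libraries of both groups, with a limit of an adjusted p under 0.05. No columns were left out, and no library pair agreed within sampling noise (lowest chi-square per degree of freedom 28.8). Nothing states more than that each library is a separate mouse, so p-values measure the spread between mice. In data simulated for Winnie-Prolapse against C57BL/6 over 17262 genes, 42.5% of 2-fold and, over 17265 genes, 80.5% of 4-fold changes were called, with 0 false calls.

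DESeq2 1.42.0, limma-voom (limma 3.58.1), other filters and scaling, single sexes, 1 fit for all groups and leaving out each library were the alternatives. All 8 carriers are named. From each other gene list the text names the genes called, or where over 8 were called the 4 with the largest rise and the 4 with the largest fall, or where none was called the 3 with the smallest adjusted p, and for each carrier the 3 genes most like it. Members and lists were chosen with earlier results of these data known.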

Additional observations from a re-analysis of the deposited data

Results flagged for a closer look

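Single libraries far from the rest of their group were searched for in 30 groups of values on the log2 scale by the gap to the nearest library over the group's range, with critical values of 0.526 for 8 libraries and 0.568 for 7, which chance passes in about 1 of 20 groups. Of the 4 values found, 3 were in C57BL/6 replicate 7, the library with the most small intestine enterocyte and smooth muscle markers of its group. In it Slc6a19 was at 1.78 CPM (others 0.594 to 0.970), Slc1a5 at 143 CPM (others 218 to 283) and the log2 ratio of Slc7a5 to Slc7a8 at -0.18 (others -1.56 to -0.95). The fourth was Slc38a2 in Winnie-Prolapse replicate 6, the library with mammary transcripts, at 247 CPM (others 186 to 209). On linear CPM, a scale chosen after seeing the data, 6 values of the 8 carriers passed the same limits: Slc6a19, Slc1a5 and Slc7a5 in C57BL/6 replicate 7, and Slc38a2, Slc7a5 and Slc3a2 in Winnie-Prolapse replicate 6. Slc7a5 was at 13.8 CPM in the first (others 7.35 to 10.3) and at 222 CPM in the second (others 15.3 to 67.6), where Slc3a2 was at 181 CPM (others 74.2 to 114).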

How the results depend on the processing

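No paired analysis was possible because the labels give the mice of different groups no shared replicate numbers. Group comparisons were recomputed with DESeq2, limma-voom, the bias-adjusted fit of edgeR, 2 other filters, no TMM factors, sex as a covariate, 1 fit for all groups, each sex alone, the looser limit, and without each library in turn. Sex interactions were recomputed only with DESeq2, no TMM factors, no filter and without each library, and the ratios and correlations only as given below. The cause of a change was not tested unless the construction shows it.

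Slc1a5 and Slc7a5 in Winnie-Prolapse against C57BL/6 were called in every fit that left out 1 library (log2 fold changes -0.95 to -0.81 and 2.01 to 2.96). In single sexes, with fewer samples, 0 of the 8 carriers were called, beside 1.76% of all genes in males and 1.45% in females. There Slc6a14 was at -0.79 in males and -0.89 in females. In Winnie against C57BL/6 DESeq2, the fit without Winnie replicate 5 and the looser limit each called 1 carrier, and leaving out single libraries gave 0 to 1. Of all genes, 5.95% were called by DESeq2, 3.89% without Winnie replicate 5 and 15.9% at the looser limit. Other carriers called there numbered 0 with the main settings, 4 with DESeq2, 1 with all groups in 1 fit, 8 at the looser limit and 0 to 3 without single libraries. In that order, the shares of all genes were 0.0925%, 5.95%, 1.12%, 15.9% and 0.0% to 3.89%. In Winnie-Prolapse against C57BL/6 they numbered 8 with the main settings, 13 with DESeq2, 5 with limma-voom, 1 in males, 1 in females and 15 at the looser limit. Between Winnie-Prolapse and Winnie the other carriers called numbered 2 with DESeq2 and 7 at the looser limit, beside 3.14% and 6.99% of all genes. For the sex by Winnie interaction at its limit of an adjusted p under 0.05, DESeq2 passed 2 carriers, Slc7a5 (0.0364) and Slc7a8 (0.0309). Of all 17277 genes, DESeq2 passed 387 with a positive and 474 with a negative interaction. The main edgeR fit passed 6 and 39 of 18233 genes.

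In females alone, where 4 mice a group or fewer limit an exact test, the ratio of Slc7a5 to Slc7a8 differed by 1.78 in Winnie and 3.27 in Winnie-Prolapse (exact permutation adjusted p = 0.0857 each), and that of Slc7a5 to Slc3a2 by 0.11 (0.714) and 1.70 (0.0857). Without single libraries, the differences between Winnie-Prolapse and Winnie were 0.60 to 1.41 and 0.63 to 1.11, and both passed 0.05 without Winnie-Prolapse replicate 3 (exact permutation adjusted p = 0.0355 and 0.0105), as did the second without Winnie replicate 2 (exact permutation adjusted p = 0.0306). The correlation of Slc3a2 with Slc7a5 in Winnie-Prolapse was 0.907 without TMM factors (exact permutation adjusted p = 0.0214) and 0.517 to 0.984 without single libraries, of which the highest, without replicate 3, passed. With Slc7a5 in Winnie it was -0.31 to 0.50. With Slc7a8 it was -0.11 to 0.53 in C57BL/6, -0.44 to 0.060 in Winnie (0.091 without TMM factors) and -0.53 to 0.57 in Winnie-Prolapse without single libraries.

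Signs turned for the following differences, none of which was called by the main fit. In single sexes these were Slc7a8 in males (0.20 in Winnie against C57BL/6 and -0.44 in Winnie-Prolapse against Winnie) and Slc16a10 in females (-0.033 in Winnie against C57BL/6, 0.048 in Winnie-Prolapse against C57BL/6 and 0.054 between the colitic groups). Without TMM factors they were Slc16a10 in Winnie (-0.023) and the sex by Winnie-Prolapse interaction of Slc38a2 (0.018). Without single libraries they were Slc16a10 in Winnie (-0.033 to 0.11), Slc7a8 in Winnie-Prolapse against Winnie (-0.074 to 0.33), and the sex interactions of Slc6a14 (-0.26 to 0.0022 and -0.087 to 0.37), Slc6a19 (-0.40 to 0.19 and -0.20 to 1.91), Slc38a2 (-0.35 to 0.0016) and Slc7a5 in Winnie-Prolapse (-1.35 to 0.58).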

Other observations

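Partners of the carriers and carriers of short peptides were read from a list of 6 genes, of which 5 were tested. Slc15a3, a lysosomal carrier of histidine and small peptides known from immune cells, was at 2.17 ± 1.24 CPM in C57BL/6, 6.15 ± 3.90 CPM in Winnie and 21.6 ± 14.4 CPM in Winnie-Prolapse (mean ± SD, n = 8, 7 and 7). It was the only gene of the list called, in Winnie-Prolapse against C57BL/6, with a log2 fold change of 3.31 ± 0.42 (adjusted p = 1.37e-05 by edgeR) and no overlap. Slc15a1, the apical carrier of dipeptides and tripeptides, was at 415 ± 159 CPM in C57BL/6, 314 ± 136 CPM in Winnie and 100.4 ± 69.0 CPM in Winnie-Prolapse. Its log2 difference was -2.06 ± 0.46 between Winnie-Prolapse and C57BL/6 (adjusted p = 0.00168 by edgeR) and -1.66 ± 0.45 between Winnie-Prolapse and Winnie (adjusted p = 0.0363), and both passed only the looser limit.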
